A study of Mus musculus with 6 samples.

Results

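The miRNAs miR-103, miR-107, miR-191 and miR-425, often used as internal references in miRNA measurements, were followed in mouse skin with and without repeated ultraviolet A (UVA) exposure. They were taken by name from the read count table, where 7 of 1480 entries matched. These are the guide strands mmu-miR-103-3p, mmu-miR-107-3p, mmu-miR-191-5p and mmu-miR-425-5p and the opposite strands miR-103-2-5p, miR-191-3p and miR-425-3p. Of the 7 entries, 6 passed the filter on low counts, and miR-103-2-5p did not. The study sequenced small RNA from skin of mice irradiated with UVA on alternate days over 4 months, to 89.88 J/cm2 in total, and from skin of mice given no irradiation (controls), with 3 libraries in each group. The labels name no strain, age or sex and leave unsaid whether replicates come from different animals. The p-values therefore measure only the spread among these samples, which may be technical.

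A reference miRNA is used to scale the others, on the assumption that its own level stays the same between samples. A mature miRNA guides Argonaute proteins to mRNAs, mainly through its seed, bases 2 to 8 from the 5′ end. miR-103 and miR-107 come from introns of genes for pantothenate kinases, the enzymes that start coenzyme A synthesis. The pair is known for limiting insulin sensitivity in mouse liver and fat and, in human cancer cells, for targeting the mRNA of Dicer. miR-191 and miR-425 are neighbours in the genome and are produced together in many tissues.

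The mature sequences below, from RefSeq on GRCm38.p6, show which reference miRNAs are related. The capitals mark the seed, and each sequence is identical to the one in the deposited table.
mmu-miR-103-3p: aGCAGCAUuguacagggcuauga
mmu-miR-107-3p: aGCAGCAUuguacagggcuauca
mmu-miR-191-5p: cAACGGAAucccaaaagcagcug
mmu-miR-425-5p: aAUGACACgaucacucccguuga
mmu-miR-16-5p: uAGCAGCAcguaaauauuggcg

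miR-103-3p and miR-107-3p share their seed with each other and with no other entry of the table. They differ by 1 base, G22C, with positions counted from the 5′ end of miR-103-3p. In the next lines the capital marks that base.
miR-103-3p: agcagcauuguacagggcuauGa
miR-107-3p: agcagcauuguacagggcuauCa

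The measurement of either miRNA rests on that base near the 3′ end. The sources used here do not say how the authors' counting treated mismatches and trimmed ends, so the split of reads between miR-103-3p and miR-107-3p is uncertain to that extent. The seeds of miR-191-5p and miR-425-5p differ from that of miR-103-3p and from each other, and miR-425-5p has its seed in common with miR-489-3p. No entry lies within 2 edits of either. miR-16-5p, of the miR-15 and miR-16 family, is shown because its bases 2 to 8 equal bases 1 to 7 of miR-103-3p and miR-107-3p. The 4 guide strands are each 23 bases long. Differences between sequences in ligation and amplification were not measured, so the order of their read levels is not an order of molecules.

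In GRCm38, miR-103-3p can come from Mir103-1 on chromosome 11 at 35782396 to 35782481, inside an intron of Pank3 (plus strand), and from Mir103-2 on chromosome 2 at 131288052 to 131288137, inside an intron of Pank2 (plus strand). Which of these hairpins gave its reads is not known. Mir107 lies on chromosome 19 at 34820687 to 34820773, inside an intron of Pank1 (minus strand). Mir191 lies on chromosome 9 at 108568319 to 108568392 and Mir425 at 108568777 to 108568861, both on the plus strand, with 384 bases between them. GENCODE places both hairpins in exons of the non-coding RNA 4833445I07Rik, and a predicted miRNA gene, Gm24083, overlaps Mir191 on the minus strand.

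The libraries differed in more than the treatment. Reads assigned to miRNAs ran from 8194504 to 12817972 per UVA library and from 7653819 to 17192811 per control library. The authors' total reads were 20472250 to 21896213 and 26904012 to 30459804, so depth and treatment cannot be told apart in that scaling. Entries with 1 to 9 reads numbered 579 to 591 in the UVA libraries, 21 and 34 in control replicates 1 and 2, and 299 in replicate 3. All 7 keratinocyte marker miRNAs were tested, and their summed level in counts-per-million units (CPM) was 34090.2 to 86159 in UVA and 44040.5 to 53951 CPM in control skin. The sum is mostly miR-203-3p, at 50936 and 42457 CPM on average; miR-205-5p was the one called, at 5256 and 672 CPM (log2 fold change 2.97, edgeR adjusted p = 0.00450). The 4 vascular markers summed to 48487 to 54154 CPM in UVA and 77586 to 169653 CPM in control skin, and 2 of them were called lower. Of 6 striated muscle markers 5 were tested. Their summed level was 41907 to 58523 CPM in UVA and 318624 to 479266 CPM in control skin. In control skin miR-1a-3p alone made up 26.6% to 36.2% of the miRNA reads. The sum is mostly miR-1a-3p, the one called lower (log2 fold change -3.29, edgeR adjusted p = 0.00196), except in UVA replicate 3. There miR-206-3p was at 29616 CPM and miR-1a-3p at 20088 CPM. In control replicates 1, 2 and 3 miR-206-3p was at 41514.5, 21013 and 21029 CPM, and over both groups it was not called (log2 fold change -1.16, edgeR adjusted p = 0.260). The marker miR-133b-3p was called higher (log2 fold change 1.84, edgeR adjusted p = 0.0459), and the other 3 were not called.

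miR-107-3p stood apart from the other 3 guide strands: it rose 8.55-fold in UVA skin, while miR-103-3p, miR-191-5p and miR-425-5p were at 1.19-fold, 1.32-fold and 1.06-fold and were not called. Levels are in CPM of libraries scaled by the trimmed mean of M-values (TMM), which assumes that most miRNAs do not change. Calls were made at a threshold of 0.05 on the adjusted p of edgeR's quasi-likelihood test (Benjamini-Hochberg) over all 499 miRNAs tested. Of the 6 tested entries of these miRNAs 1 was called, beside 21.8% of all tested miRNAs. The groups did not overlap in 1 of the 6, beside 48.3% of all tested miRNAs.

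mmu-miR-107-3p was at 273.6, 433 and 113 CPM in UVA replicates 1, 2 and 3 and at 43.8, 24.5 and 27.5 CPM in the control replicates. Every UVA library lay above every control library, and UVA replicate 3 was the lowest of its group. The means were 273 ± 160.0 and 31.9 ± 10.4 CPM (SD, n = 3 per group), from 1100 to 5978 and 189 to 527 reads. The log2 fold change was 3.10 (SE 0.62, 95% interval 1.71 to 4.48, edgeR adjusted p = 0.00924). The summed level of 5 fibroblast marker miRNAs was also higher, at 19106.6 to 28738.8 CPM in UVA and 2816 to 4234 CPM in control skin. That sum is mostly the merged entry miR-199a-3p/miR-199b-3p, at 17603 and 1800 CPM on average. Of the 5, 3 were called higher, beside 68 of all 499 tested miRNAs. miR-214-3p and miR-199b-5p were not called (log2 fold changes 1.14 and 0.34, edgeR adjusted p = 0.0824 and 0.753). The part of fibroblasts in the rise of miR-107-3p was not tested. In whole skin, a change in the number of cells of a type and a change in RNA per cell cannot be told apart. The call was lost without control replicate 2 (log2 fold change 2.70, adjusted p = 0.0536) and without control replicates 1 and 2 together (3.02, adjusted p = 0.267). In the authors' deposited table its log2 fold change is 3.18, with p = 0.00159 and q = 0.0437.

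mmu-miR-103-3p, which shares the seed of miR-107-3p, was at 1910.3, 2230.0 and 1111 CPM in UVA replicates 1, 2 and 3 and at 1582, 1152 and 1668 CPM in the control replicates. The groups overlapped: UVA replicate 3 was the lowest of all 6 libraries and UVA replicate 2 the highest. The means were 1750.5 ± 576 and 1467 ± 277 CPM (n = 3 per group). The log2 fold change was 0.25 (SE 0.43, 95% interval -0.70 to 1.21, edgeR adjusted p = 0.679), an interval that spans 0.615-fold to 2.31-fold.

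mmu-miR-191-5p had the highest mean read level of the 4. It was at 1660.1, 2246 and 3243 CPM in the UVA replicates and at 1970 (replicate 1), 1289 and 2167 CPM in the control replicates. The groups overlapped, and UVA replicate 3, where miR-103-3p was lowest, was the highest for miR-191-5p. The means were 2383 ± 800.1 and 1809 ± 461 CPM (n = 3 per group), with a log2 fold change of 0.40 (SE 0.43, 95% interval -0.56 to 1.36, edgeR adjusted p = 0.510).

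mmu-miR-425-5p had the narrowest range of the 4. It was at 83.8, 81.1 and 112 CPM in the UVA replicates and at 91.4, 70.9 and 99.3 CPM in the control replicates. The groups overlapped, and control replicate 2 was the lowest and UVA replicate 3 the highest library. The means were 92.2 ± 17.0 and 87.2 ± 14.7 CPM (n = 3 per group), with a log2 fold change of 0.081 (SE 0.46, 95% interval -0.94 to 1.10, edgeR adjusted p = 0.924). A p above the threshold does not show that these 3 miRNAs were level. The intervals hold up to 2.31-fold, 2.56-fold and 2.15-fold higher levels in UVA skin for miR-103-3p, miR-191-5p and miR-425-5p. In the authors' deposited table the q of each of the 3 is 0.864 or higher.

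**Figure D1:**
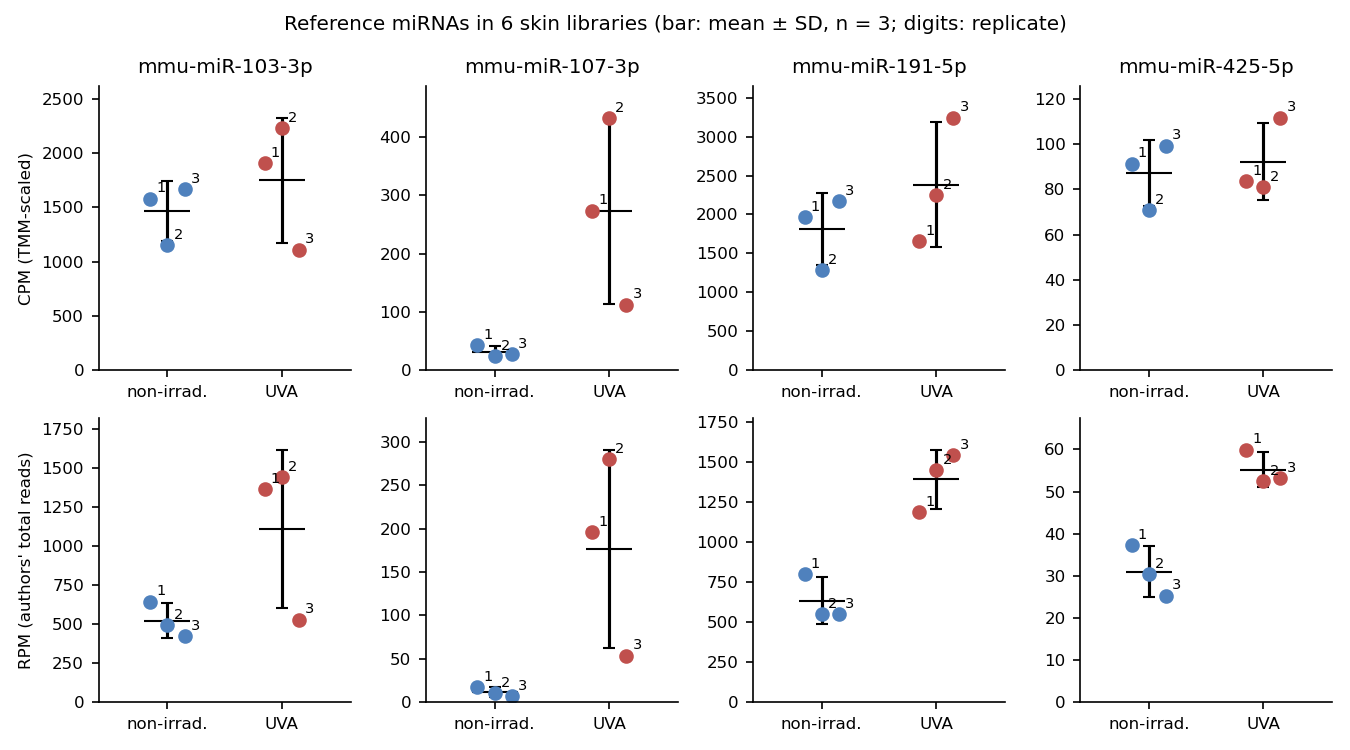
Level of the 4 guide strands in each UVA and non-irradiated (control) library, as TMM-scaled CPM (top row) and as the authors' RPM, which uses total reads (bottom row), with linear axes from 0. Points are libraries numbered by replicate, and bars are the mean ± SD of 3 libraries. In CPM only miR-107-3p has groups that do not overlap, and in RPM miR-107-3p, miR-191-5p and miR-425-5p do.

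Ranks within a library do not depend on scaling. By read count among the 1480 entries, miR-103-3p ranked 42 to 57 in the UVA libraries and 47 to 53 in the control libraries. miR-191-5p ranked 33 to 49 and 38 to 50, and miR-425-5p ranked 144 to 159 and 150.5 to 162. miR-107-3p ranked 80 to 142 in the UVA libraries and 187 to 215.5 in the control libraries. The ranks of the first 3 overlapped between the groups and those of miR-107-3p did not. The share of all miRNAs without overlap in rank was not computed, and in TMM-scaled CPM it was 48.3%.

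Ratios between the guide strands within a library are also free of the scaling. Of the reads of miR-103-3p and miR-107-3p together, miR-107-3p took 12.5%, 16.3% and 9.21% in the UVA replicates (exact Clopper-Pearson 95% intervals 12.2% to 12.9%, 15.9% to 16.6% and 8.70% to 9.74%). It took 2.69%, 2.08% and 1.62% in the control replicates (2.47% to 2.93%, 1.86% to 2.32% and 1.40% to 1.87%). The lowest UVA share was above the highest control share. The means were 12.7% ± 3.52 and 2.13% ± 0.536 (SD, n = 3 per group; 2-sided exact permutation p = 0.1, the lowest value open to 3 against 3 libraries). The intervals cover counting error only, since the labels name no molecular identifiers and reads can be copies of 1 molecule. With the reads of both summed into 1 entry, the log2 fold change was 0.43 (SE 0.43, 95% interval -0.54 to 1.40, edgeR adjusted p = 0.480). That value was 0.047 without control replicate 2, 0.70 without UVA replicate 3 and 1.27 with total reads, and it was called in none of these.

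All 6 pairs of guide strands were compared. The log2 ratio of miR-103-3p to miR-107-3p was 2.82 ± 0.47 in UVA and 5.55 ± 0.37 in control skin, a difference of -2.72. That of miR-107-3p to miR-191-5p differed by 2.56 and that of miR-107-3p to miR-425-5p by 2.86. In each of these 3 pairs the groups did not overlap (exact permutation test, 2-sided, p = 0.1 for each, 0.2 adjusted over the 6 pairs), and this design cannot go below p = 0.1. The 3 pairs share miR-107-3p, so they are not separate observations. The share of other miRNA ratios without overlap was not computed. In TMM-scaled CPM the groups did not overlap in 48.3% of all tested miRNAs.

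The 3 pairs without miR-107-3p had groups that overlapped. The ratio of miR-191-5p to miR-425-5p, the genomic neighbours, was 4.65 ± 0.30 and 4.35 ± 0.15 on the log2 scale (difference 0.30, exact permutation p = 0.3, adjusted 0.45). Its SD over all 6 libraries, 0.27, was the smallest of the 6 pairs. The ratio of miR-103-3p to miR-425-5p differed by 0.13 (exact permutation p = 0.9, adjusted 1) and that of miR-103-3p to miR-191-5p by -0.17 (p = 1). The signs of both differences rested on single UVA libraries. Without UVA replicate 3 they were 0.58 and 0.38, and the former was -0.021 without UVA replicate 1 and -0.16 without UVA replicate 2.

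Those ratios spread more among the UVA libraries than their means show. The log2 ratio of miR-103-3p to miR-191-5p was -0.32, -0.16 and -0.38 in the control replicates (SD 0.11), and 0.20, -0.010 and -1.55 in the UVA replicates (SD 0.95). UVA replicate 3 was apart from the other 5 libraries. The log2 ratio of miR-103-3p to miR-425-5p had an SD of 0.046 in control and 0.78 in UVA skin, with UVA replicate 3 again the lowest at 3.31. Averaged over its pairs with the other 3, the SD of the log2 ratio was 1.66 for miR-107-3p and 0.85 to 0.88 for the others. With miR-107-3p left out it was 0.38 for miR-425-5p, 0.44 for miR-191-5p and 0.56 for miR-103-3p.

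**Figure D2:**
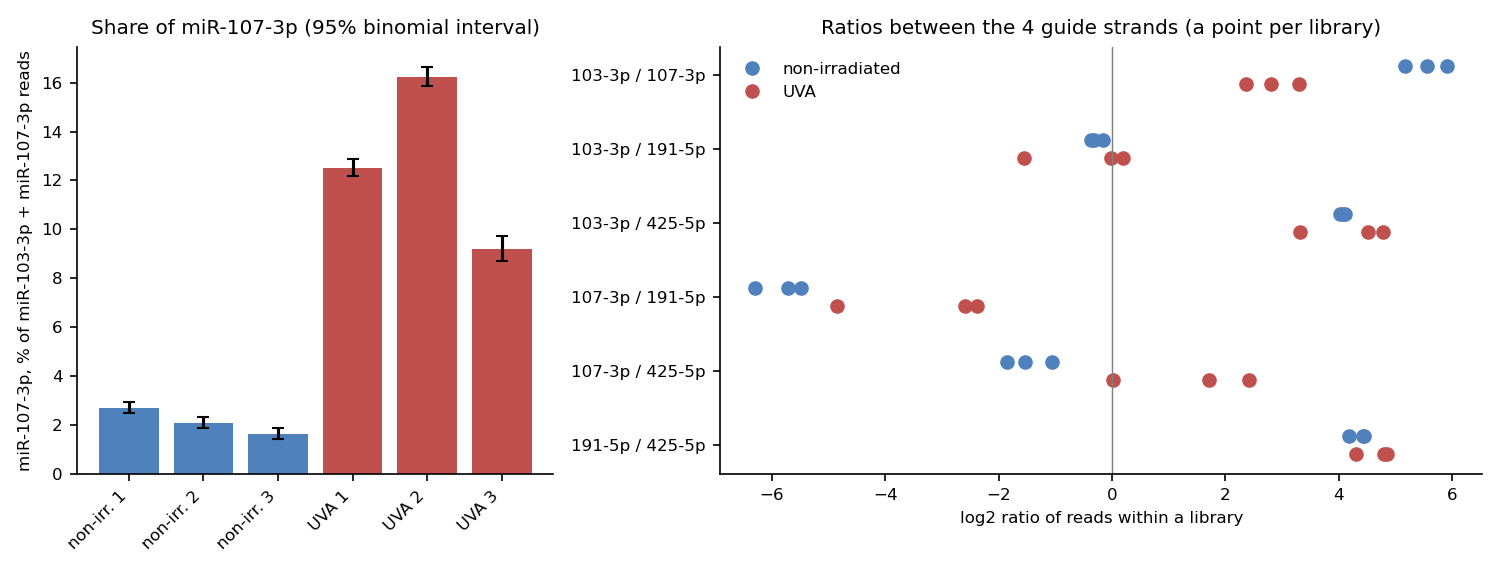
Left, share of miR-107-3p in the joint reads of miR-103-3p and miR-107-3p in each library, in percent, with the exact 95% interval; the UVA shares are 9.21% to 16.3% and the control shares 1.62% to 2.69%. Right, log2 ratio of reads for each pair of guide strands, a point per library; the 3 pairs with miR-107-3p separate the groups, and UVA replicate 3 gives the low outlying point, -1.55, of miR-103-3p over miR-191-5p.

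How level the 4 miRNAs were between the groups depended on the scaling, except for the rise of miR-107-3p. Over all 499 tested miRNAs the median log2 fold change was 0.27 with TMM, 0.29 with median-of-ratios factors and 0.17 with upper-quartile factors. It was 0.32 with library size after striated muscle miRNAs were removed, 0.81 with library size alone and 1.07 with total reads as the authors' RPM uses them. With these scalings 21.6% (median-of-ratios), 20.0% (upper quartile), 20.0% (without muscle miRNAs), 29.9% (library size alone) and 33.5% (total reads) of the tested miRNAs were called. miR-107-3p was the one guide strand called in each, with log2 fold changes from 2.92 to 3.90 and edgeR adjusted p from 0.00346 to 0.0137.

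miR-103-3p had log2 fold changes of 0.14 to 0.30 with the 3 kinds of factors and with muscle miRNAs removed, 0.79 with library size alone and 1.09 with total reads (95% interval -0.036 to 2.22, edgeR adjusted p = 0.123). miR-191-5p had 0.29 to 0.43 in the same 4 scalings, 0.92 with library size alone (adjusted p = 0.143) and 1.13 with total reads. That last interval, 0.14 to 2.12, did not include 0, and the miRNA was not called (edgeR adjusted p = 0.0735). miR-425-5p had -0.010 to 0.13, then 0.61 with library size alone and 0.83 with total reads (adjusted p = 0.241).

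A scaling moves all miRNAs of a library together, so the distance from the median of all miRNAs changed little. It was -0.027 to 0.027 for miR-103-3p over the 6 scalings, 0.066 to 0.13 for miR-191-5p, -0.23 to -0.18 for miR-425-5p and 2.76 to 2.84 for miR-107-3p, on the log2 scale. Leaving out a library changed that distance more: without UVA replicate 3 the log2 fold change of miR-103-3p was 0.51 beside a median of 0.19, and without control replicate 2 it was -0.14 beside 0.095.

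In the authors' RPM values, which use total reads, miR-191-5p was at 1189, 1452 and 1546 RPM in the UVA replicates and at 804, 554 and 553 RPM in the control replicates. miR-425-5p was at 60.0, 52.4 and 53.2 RPM and at 37.3, 30.5 and 25.3 RPM. The groups did not overlap for either miRNA on this scale. miR-103-3p was at 1368, 1442 and 529.6 RPM and at 646, 495 and 426 RPM, and UVA replicate 3 lay among the controls. Groups that did not overlap numbered 5 of 6 tested entries with total reads and 5 of 6 with library size alone, all but miR-103-3p, beside 49.7% and 52.9% of all tested miRNAs. The summed striated muscle markers and the total reads differ between the groups as given above. With muscle miRNAs removed from the library size the fold changes were close to those with TMM. The part of the muscle miRNAs and of the total reads in these fold changes was not tested.

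**Figure D3:**
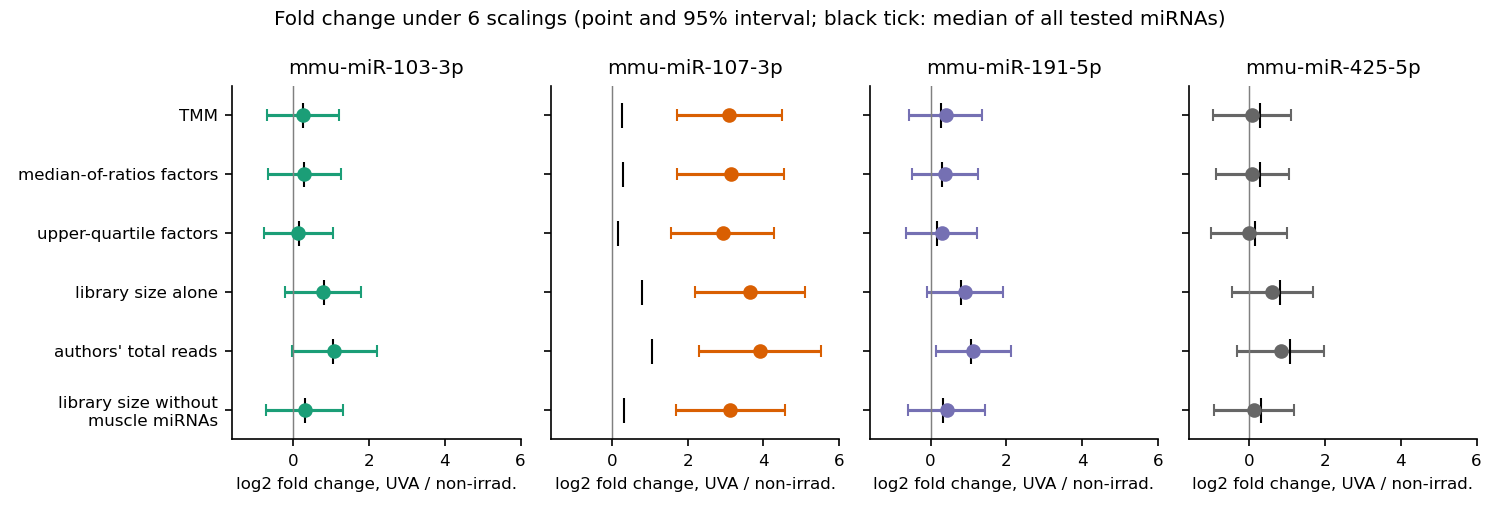
log2 fold change of the 4 guide strands, UVA over control, under 6 scalings (point, with the 95% interval from edgeR), beside the median of the 499 tested miRNAs (black tick). miR-103-3p, miR-191-5p and miR-425-5p move with the tick, which runs from 0.17 to 1.07, and miR-107-3p lies 2.76 to 2.84 above it.

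The spread over the 6 libraries was then set against that of all miRNAs, without regard to group. The SD of log2 CPM was 0.23 for miR-425-5p, 0.40 for miR-103-3p, 0.45 for miR-191-5p and 1.75 for miR-107-3p, and its median over the 499 tested miRNAs was 1.20. miR-425-5p had the 4th smallest spread, and the ranks of miR-103-3p, miR-191-5p and miR-107-3p were 22, 31 and 346. The median and the ranks pool miRNAs of all levels, and large spreads were common among scarce miRNAs. How much of a rank goes with the level was not tested. With median-of-ratios factors miR-425-5p ranked 1 (SD 0.16) and with the authors' total reads it ranked 19 (SD 0.50). miR-103-3p and miR-191-5p then ranked 94 and 60, with SDs of 0.77 and 0.67. Within groups the SD was 0.25 for miR-425-5p, 0.43 for miR-103-3p, 0.44 for miR-191-5p and 0.76 for miR-107-3p.

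Among miRNAs with a mean of 100 CPM or more, the smallest spreads were those of miR-140-3p, a cartilage-rich miRNA, miR-26a-5p and miR-30c-5p, at 0.19, 0.26 and 0.29. miR-103-3p and miR-191-5p were more variable than these.

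**Figure D4:**
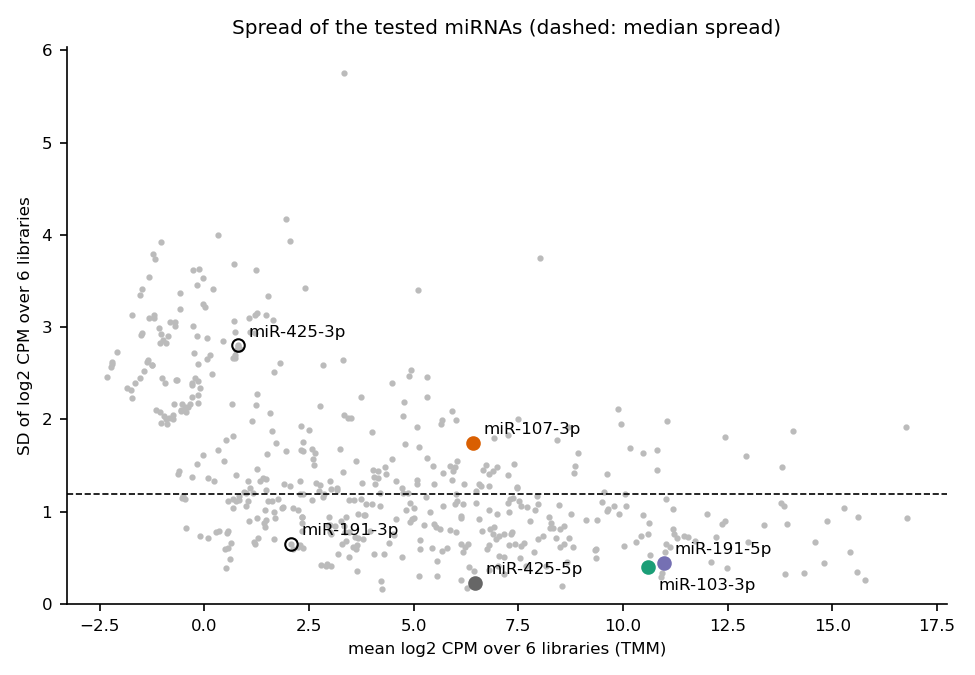
SD of log2 CPM over the 6 libraries (TMM) against mean log2 CPM, a point per tested miRNA; the dashed line is the median SD, 1.20. miR-425-5p, miR-103-3p and miR-191-5p lie at 0.23 to 0.45, miR-107-3p at 1.75 and the opposite strand miR-425-3p at 2.80.

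The miRNAs with the most similar pattern were found by the SD of the log2 ratio over the 6 libraries, which is free of scaling. For miR-107-3p they were miR-29a-3p (SD 0.32), a regulator of collagen mRNAs, the merged entry miR-199a-3p/miR-199b-3p (0.52), a fibroblast miRNA, and miR-181c-5p (0.52). All 3 were also called higher in UVA skin, with log2 fold changes of 3.01, 3.29 and 2.66 (edgeR adjusted p = 0.00536, 0.00196 and 0.0137). Their choice by a near-constant ratio to miR-107-3p in these libraries fixes that direction, so these values are a description. The call of miR-181c-5p was lost on leaving out UVA replicate 2, control replicate 1 or control replicate 2 (adjusted p from 0.0648 to 0.0719). Those of the other two were lost only on leaving out control replicates 1 and 2 together (0.229 and 0.124). miR-103-3p was not among the 3, and its SD against miR-107-3p was 1.54.

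For miR-103-3p the most similar were miR-872-5p (SD 0.16), miR-200b-3p (0.24), an epithelial miRNA, and miR-369-3p (0.25) of the imprinted Dlk1-Dio3 region. For miR-191-5p they were miR-26a-5p (0.26), its neighbour miR-425-5p (0.27) and let-7f-5p (0.27). For miR-425-5p they were miR-26a-5p (0.24), miR-126a-3p (0.25), an endothelial miRNA, and miR-191-5p (0.27). None of these 6 other miRNAs was called, beside 21.8% called of all tested miRNAs. They were chosen for a near-constant ratio to a guide strand that was not called itself, so this is a description.

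The opposite strands were scarce. miR-191-3p had 44, 93 and 78 reads in the UVA replicates and 47, 42 and 19 in the control replicates, against 14884 to 31642 reads of the guide. It was at 5.84 ± 2.71 and 3.29 ± 0.573 CPM, and its log2 fold change was 0.82 ± 0.76 (SE; edgeR adjusted p = 0.439). miR-425-3p had 36, 128 and 70 reads in UVA and 28, 0 and 12 in control skin, and guide reads were 8.75 to 36.5 times as many in the UVA libraries. In control replicates 1 and 3 they were 39.3 and 56.8 times as many.

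The log2 fold change of miR-425-3p was 2.20 (SE 1.27, 95% interval -0.63 to 5.04, edgeR adjusted p = 0.212), and it was not called. Without control replicate 2 the value was 1.24, and limma-voom gave 3.47, neither of them called. Its 0 in control replicate 2 allows up to 3 counts, or 0.229 CPM, and that library is one with few low counts. miR-103-2-5p had 1, 3 and 0 reads in UVA and 0 in each control library, which is at or under the floor of 3 counts per library, so no fold is given.

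Other miRNAs used as references were compared, from a list of 18, all tested. Of these 3 rose, 1 fell and 14 were not called, or 22.2% called beside the 21.8% of all tested miRNAs. The median log2 fold change was 0.56, beside 0.27 over all tested miRNAs. The median SD of log2 CPM was 0.68, and 14 of 18 were below the 1.20 of all, a median that takes in scarce miRNAs. miR-484 rose from 11.6 ± 9.04 to 126 ± 32.2 CPM and miR-423-3p from 61.1 ± 35.8 to 491 ± 285 CPM (n = 3 per group; log2 fold changes 3.44 and 3.01, edgeR adjusted p = 0.0189 and 0.0133).

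miR-92a-3p, of the proliferation-linked miR-17-92 cluster, had a log2 fold change of 2.32 (adjusted p = 0.0242), and miR-151-3p one of -2.23 (0.0316). Each of these 4 calls was lost in at least 1 omission of a single library: miR-484 lost its call without UVA replicate 2 (adjusted p = 0.0768), and miR-423-3p on leaving out control replicate 1 or 2 (0.0651 and 0.0618). miR-151-3p lost it without UVA replicate 2 (0.134) and without control replicate 2 (0.0536), as well as with library size alone and total reads (0.0595 and 0.0579). miR-92a-3p lost it without UVA replicate 2 and without each control library in turn (0.0622 to 0.104).

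The most abundant of the list, miR-26a-5p, miR-24-3p, let-7a-5p and miR-22-3p, had log2 fold changes of 0.27, -0.51, 1.20 and -1.16 and were not called (adjusted p = 0.551, 0.261, 0.0938 and 0.0640). let-7a-5p was called higher with library size alone, with total reads and without UVA replicate 1 (adjusted p = 0.0300, 0.0113 and 0.0347). miR-22-3p was called lower with upper-quartile factors, by DESeq2 and by limma-voom (0.0486, 0.0220 and 0.0440). The smallest spreads were those of miR-26a-5p, miR-30c-5p and miR-361-5p (SD 0.26, 0.29 and 0.30), beside 0.23 for miR-425-5p. With upper-quartile factors miR-26a-5p and miR-30c-5p, at 0.20 and 0.22, lay below miR-425-5p at 0.28. The spread of miR-26a-5p was 0.50 with library size alone and 0.62 with total reads, and that of miR-361-5p was 0.74 with total reads.

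In the miR-15 and miR-16 family, the seed of miR-16-5p is shifted by 1 base from that of miR-103 and miR-107. The seeds of the other listed members were not compared here. Of the family, 7 of 7 listed members were tested. edgeR called 0 of them, beside 21.8% of all tested miRNAs. At an unadjusted p of 0.05 or lower there were 3, beside 40.7% of all. The DESeq2 Wald test called 3, beside 38.7% of those to which it gave an adjusted p, and limma-voom called 0, beside 30.3%. Their median log2 fold change was 1.14, beside 0.27 over all tested miRNAs. Of the 7, 4 were positive, beside 277 of all 499 tested miRNAs. miR-16-5p, the most abundant, was at 1130.4 ± 576 CPM in UVA and 1609 ± 465 CPM in control skin (n = 3 per group; log2 fold change -0.51, edgeR adjusted p = 0.467), and miR-195a-5p had a log2 fold change of -0.59 (adjusted p = 0.390).

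Finally the libraries were scaled to the reference miRNAs themselves, as would be done with an internal reference. TMM gave 68 miRNAs higher and 41 lower in UVA skin, library size alone 122 and 27, and total reads 145 and 22. Scaling to miR-425-5p alone called 17.8% of the tested miRNAs, 48 higher and 41 lower, of which 85 were among the 109 called with TMM. Scaling to miR-191-5p called 16.6%, 31 higher and 52 lower, with 67 of 83 shared with TMM. Scaling to miR-103-3p called 8.82%, 22 higher and 22 lower, all 44 among those called with TMM. With these 3 references the median over the tested miRNAs, on the log2 scale, was 0.19, -0.075 and 0.11.

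Scaling to miR-107-3p called 42.1%, 5 higher and 205 lower, with a median of -2.45 and 46 of the 210 shared with TMM. The geometric mean of all 4 called 22.8%, 27 higher and 87 lower, with a median of -0.64 and 68 of 114 shared with TMM. Without miR-107-3p, a combination chosen after the data were seen, it called 19.0%, 45 higher and 50 lower, with a median of 0.051 and 86 of 95 shared.

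**Figure D5:**
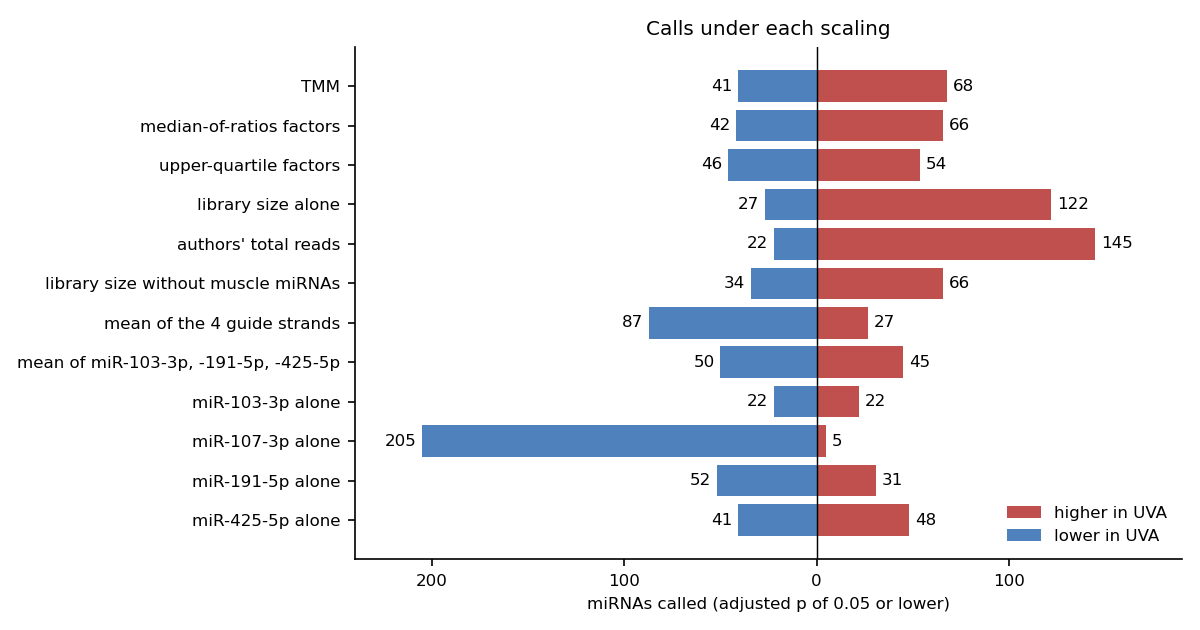
Number of the 499 tested miRNAs called higher (right) and lower (left) in UVA skin by edgeR, under 6 library scalings and when scaled to the reference miRNAs. Scaling to miR-107-3p alone gives 5 higher and 205 lower, and scaling to miR-425-5p alone gives 48 higher and 41 lower.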

How the data were processed

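Small RNA libraries were made with the TruSeq kit from mirVana RNA, per the labels' protocols. The deposited counts are whole reads per mature miRNA; they were aligned with Bowtie, per the submitters' processing notes, whose settings, genome build and miRNA release the sources used here do not give. The deposited RPM values equal the counts divided by 1 constant per library, which gives the authors' total reads. The deposited fold, log2 fold change, signal (mean normalized count), p-value and q-value columns hold the authors' comparison, by their headers. Of each table, 2 emptied lines were not analysed here.

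Groups were compared with edgeR 4.0.16 in R 4.3.3 (quasi-likelihood test, TMM, filterByExpr, Benjamini-Hochberg over 499 miRNAs). DESeq2 1.42.0, limma-voom (limma 3.58.1), other scalings, no filter, a replicate block and omitted libraries were alternatives. The standard error is |log2 fold change| over the square root of F, and 95% intervals use the t distribution of the fit. Log2 CPM used a prior count of 0.5 and ratios a pseudocount of 0.5. The floor for 0 was 3 counts per library. The edgeR step was tested on simulated data. Every pair of replicates differed by more than sampling noise.

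The members, lists and tests were chosen with earlier results of these data known. Named were all members, the 3 miRNAs most similar to each guide, the called, the 4 most abundant and the 3 most level of the other references, the called and the 2 most abundant seed relatives, and the 3 most level miRNAs of 100 CPM or more. The rule also took the 3 most abundant striated muscle and the 3 most abundant keratinocyte markers. Of these, miR-1a-3p, miR-206-3p, miR-203-3p and miR-205-5p are given. Outside the rule, miR-133b-3p, miR-214-3p and miR-199b-5p are named because they did not follow the sum of their list. Also outside it, miR-143-3p is named as the largest part of the vascular sum.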

Additional observations from a re-analysis of the deposited data

How the results depend on the processing

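miR-107-3p was higher in UVA skin under all 16 alternatives and was called in 14 of them. It was not called without control replicate 2 or without control replicates 1 and 2 together (log2 fold change 3.02); over single omitted libraries it ran from 2.60 to 3.48. miR-103-3p, miR-191-5p and miR-425-5p were called in none of the 16. Their signs turned: without control replicates 1 and 2 they were -0.23, -0.28 and -0.48, and miR-425-5p was -0.010 with upper-quartile factors and -0.012 without a filter. Over single omitted libraries they ran from -0.14 to 0.51, from -0.15 to 0.51 and from -0.36 to 0.16. The summed miR-103-3p and miR-107-3p was -0.042 without both control libraries. The spread of miR-425-5p was 0.50 with total reads. Differences in the pair ratios moved by less than the SD among the UVA replicates with a pseudocount of 5 and with each library left out. All but that of miR-103-3p with miR-107-3p moved by more than the SD among the control replicates in some omission. Without UVA replicate 3, miR-107-3p with miR-191-5p went from 2.56 to 3.35 (control SD 0.42) and with miR-425-5p from 2.86 to 3.54 (0.40). Without UVA replicate 1, miR-191-5p with miR-425-5p went from 0.30 to 0.47 (control SD 0.15). Those of miR-103-3p with miR-191-5p and with miR-425-5p, with control SDs of 0.11 and 0.046, also changed sign.

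The 109 calls among 499 miRNAs became 191 among 493 with the DESeq2 Wald test. Among the same 499 they became 167 with total reads, 44 scaled to miR-103-3p and 210 scaled to miR-107-3p. With single libraries omitted the low-count filter kept 542 to 577 miRNAs, and 38 to 124 were called. There were 38 of 564 without UVA replicate 2, 57 of 549 without control replicate 1 and 63 of 542 without control replicate 2. The signs of miR-24-3p (0.036 and 0.22) and miR-16-5p (0.023 and 0.34) turned with library size alone and total reads, and that of miR-195a-5p with total reads (0.24). That of miR-26a-5p turned without control replicates 1 and 2 together (-0.17), and its value ran from -0.12 to 0.36 over single omitted libraries. The cause was not tested.

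Same-numbered replicates deviated from their group means with correlations of 0.085, -0.080 and -0.0099 over 499 miRNAs. Pairs with unlike numbers ran from -0.11 to 0.13. With 3 libraries per group these values cannot tell whether same-numbered replicates share a batch or pairing, which the labels leave unsaid. A replicate block gave 106 calls and left the call of each guide strand as it was. Reads of the opposite strands, 0 to 128 per library, limit their comparison.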
